A study of Mus musculus with 6 samples.

Results

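RNA polymerases I, II and III copy the nuclear genome into RNA, and their subunits are encoded here by 28 protein-coding genes whose symbols begin with Polr1, Polr2 or Polr3, out of 18543 genes counted in lung group 2 innate lymphoid cells (ILC2s). The members were taken by symbol and gene type, not by their levels, but with earlier results of these data known. Polymerase I makes the large ribosomal RNA precursor in the nucleolus, polymerase II makes messenger RNA, and polymerase III makes transfer RNA, the small ribosomal RNA and other short RNAs. Each enzyme has a pair of large catalytic subunits and a set of smaller ones. Some small subunits are built into all the enzymes, a pair of alpha-like subunits is shared by polymerases I and III, and the rest belong to a single enzyme. Cells that grow and divide need more of the products of polymerases I and III, and the transcription factor MYC is known to raise the output of both.

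By enzyme, 3 members belong to polymerase I alone (Polr1a, Polr1b and Polr1e), 2 to polymerases I and III (Polr1c and Polr1d), 5 to all the enzymes (Polr2e, Polr2f, Polr2h, Polr2k and Polr2l), 7 to the core of polymerase II alone, and 10 to polymerase III alone. The remaining member, Polr2m, encodes a protein that associates with polymerase II and is not a core subunit. Other subunits carry symbols outside this pattern (Cd3eap, Twistnb and Znrd1 for polymerase I, Crcp for polymerase III) and are given beside the members.

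The study sequenced messenger RNA of ILC2s, innate lymphocytes that release type 2 cytokines, sorted from lungs of Atg5-/- and wild-type C57BL/6 mice aged 8 weeks, with 3 libraries under each label (KO 1 to KO 3 and WT 1 to WT 3). Every mouse, wild type included, had been given 0.5 µg of recombinant IL-33 into the nose on each of 3 days, and cells were taken on day 4. Each library started from 10 ng of RNA. The labels name no Cre driver or deleted exon, and they do not say whether a library came from a single mouse or a pool, so the p-values speak only for the spread among these libraries, part of which may be technical.

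Library totals were 28827545 to 33662979 estimated counts under the KO label and 30094216 to 30761987 under the WT label. Levels are given as CPM, counts divided by the TMM-adjusted size of the library, and 3 counts correspond to 0.0892 to 0.104 CPM. Atg5, the targeted gene, was at 23.0, 25.6 and 52.2 CPM under the labels KO 1, KO 2 and KO 3, against 66.3, 71.8 and 21.8 CPM under WT 1, WT 2 and WT 3. The library labelled WT 3 therefore goes against its label, and the level under KO 3 was also nearer to WT 1 and WT 2 than to KO 1 and KO 2. Calls are given with WT 3 and without it, and their counts also without both libraries numbered 3; all directions are between labels. The ILC2 markers, 10 of 10 measured, summed to 4681 to 4955 CPM under the KO label and to 7479, 7417 and 5063 CPM under the labels WT 1, WT 2 and WT 3. Summed markers of the T cell receptor complex (5 of 6 genes measured) were 20.6 to 24.5 CPM under the KO label and 22.4 to 41.6 CPM under the WT label, and those of macrophages and monocytes (5 of 6) were 2.52 to 5.65 CPM under the KO label and 4.48 to 12.7 CPM under the WT label. B cell markers (3 of 4) summed to 6.67 to 14.3 CPM under the KO label and 13.5 to 19.5 CPM under the WT label, epithelial markers (4 of 5) to 9.35 to 29.3 CPM under KO and 15.0 to 58.2 CPM under WT, and mast cell and granulocyte markers (4 of 6) to at most 4.26 CPM under KO and 3.91 to 12.7 CPM under WT. Of the epithelial sum under KO 2, Scgb1a1 gave 15.0 CPM and Epcam 13.7 CPM; Scgb1a1 was at 0 under KO 1, KO 3, WT 1 and WT 2. S100a9 and Krt8 were at 0 in all 3 libraries labelled WT. The part of these other markers in the results below was not tested.

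The promoters of 3 members are shown because these genes bear the main results: Polr1b had the widest difference in level of the 28, and Polr3g and Polr3gl encode alternative forms of the same polymerase III subunit whose levels differed in opposite directions. The sequences are the 250 bases before the annotated start, from RefSeq on GRCm38.p6 (mm10), written along the gene's strand. Capitals mark literal matches on either strand to CACGTG (an E-box, bound by MYC with MAX), CCGGAAG (ETS factors), GCATGC (the core of the NRF1 motif), GGGCGG (a GC box), CCAAT and TATAAA.
Polr1b, chr2:129100746-129100995, forward strand: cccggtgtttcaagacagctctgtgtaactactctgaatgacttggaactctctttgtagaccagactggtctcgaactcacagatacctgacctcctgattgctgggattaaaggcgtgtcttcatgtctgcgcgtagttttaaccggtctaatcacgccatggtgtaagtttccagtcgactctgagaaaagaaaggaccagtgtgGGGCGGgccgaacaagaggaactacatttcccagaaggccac
Polr3g, chr13:81711014-81711263, reverse strand: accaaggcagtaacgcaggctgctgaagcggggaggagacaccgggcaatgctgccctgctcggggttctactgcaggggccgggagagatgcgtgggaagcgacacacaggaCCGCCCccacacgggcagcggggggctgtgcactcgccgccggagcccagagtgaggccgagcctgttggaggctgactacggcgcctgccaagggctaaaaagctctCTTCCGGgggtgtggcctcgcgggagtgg
Polr3gl, chr3:96594182-96594431, reverse strand: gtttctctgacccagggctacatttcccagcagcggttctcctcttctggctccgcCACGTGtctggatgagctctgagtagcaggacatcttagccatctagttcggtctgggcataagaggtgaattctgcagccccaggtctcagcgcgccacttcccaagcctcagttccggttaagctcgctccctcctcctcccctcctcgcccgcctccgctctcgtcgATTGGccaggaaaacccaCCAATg

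Polr3gl has an E-box whose first base lies 194 bases before the start, and CCAAT matches at 24 and 6 bases before it. Polr3g has a GC box at 137 bases and an ETS match at 29 bases before its start, and Polr1b has a GC box at 42 bases before its start. A match describes letters in this window and is not a site shown to be bound. Over windows of 300 bases (250 before and 50 after a start), 24 windows were found for 22 of the 28 members. The E-box was in 4 of these 24 windows (16.7%; Polr2h, Polr3c, Polr3e and Polr3gl) and in 7.15% of all 32851 promoter windows. The GC box was in 15 of them (62.5%, against 35.7% of all windows) and the ETS match in 7 (29.2%, against 8.86%). CCAAT was in 7 windows (29.2%, against 37.4% of all), the NRF1 core in 3 (12.5%, against 7.93%) and TATAAA in 2 (8.33%, against 13.6%). Member windows had a median GC content of 60.0%, against 52.7% over all windows, so GC-rich motifs and base composition go together here. Of the 4 genes with an E-box, Polr2h and Polr3e were called higher under the KO label without WT 3, Polr3gl was called lower and Polr3c had no call. In that fit 17.7% of all genes were called higher and 16.1% lower. Whether these matches bear on the levels was not tested.

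With the library labelled WT 3 left out, 18 of the 28 subunit genes rose and 1 fell under the KO label. The genes that rose were all 3 of polymerase I, all 5 subunits shared by the enzymes, Polr1c, 6 of polymerase III and 3 of polymerase II, and the gene that fell was Polr3gl of polymerase III. Over all 14743 genes of that fit, 17.7% were called higher and 16.1% lower (edgeR quasi-likelihood test, adjusted p under 0.05). With all 6 libraries 0 of the 28 passed, as did 0 of 14052 genes (0%), and the members' adjusted p ranged from 0.342 to 0.914. At an unadjusted p under 0.05 with 6 libraries there were 4 members (Polr2d, Polr2e, Polr3g and Polr3gl), beside 14.4% of all genes. DESeq2 and limma-voom also called 0 members with all 6 libraries, beside 2.31% (0.107% higher and 2.21% lower) and 0% of all genes. In bulk RNA, fewer cells of a type and less RNA per cell cannot be told apart.

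The median log2 difference, KO minus WT, was 0.58 over the 28 members without the library labelled WT 3 and 0.35 with it, against medians over all genes tested of 0.02 in each fit. By enzyme, the median without that library was 1.01 for polymerase I, 0.59 for the pair shared by I and III, 0.73 for the subunits in all the enzymes, 0.67 for polymerase III and 0.20 for the 7 core subunits of polymerase II alone. With all 6 libraries the same medians were 0.62, 0.40, 0.44, 0.41 and 0.13. Polymerase II's own subunits thus had the smallest median in both fits, a description of these lists with no test of the difference between them. All 28 passed the low-count filter.

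**Figure D1:**
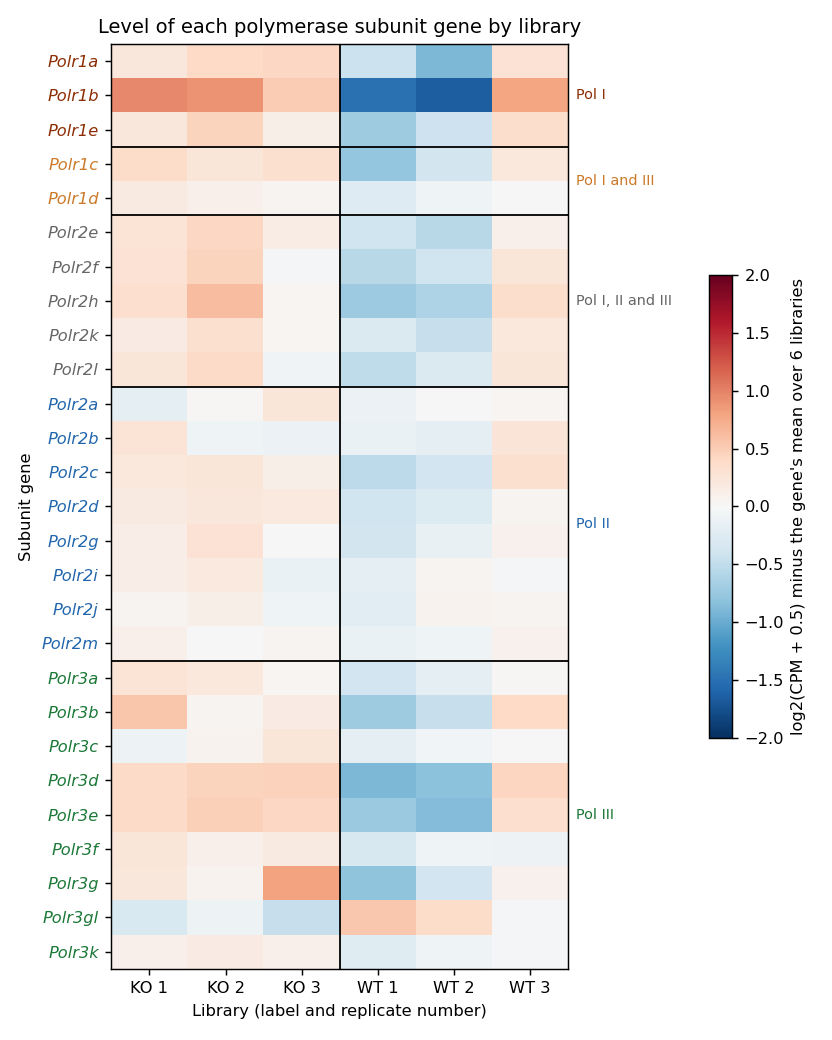
Level of the subunit genes described here (rows, grouped by the enzyme they belong to) in the libraries labelled KO 1 to KO 3 and WT 1 to WT 3 (columns), as log2(CPM + 0.5) minus the gene's mean over the 6 libraries. Polr1b is the deepest contrast, at -1.50 and -1.65 in the libraries labelled WT 1 and WT 2 against 0.79 in the library labelled WT 3, while polymerase II's Polr2a and Polr2j are pale throughout.

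How far the calls rest on single libraries was checked by leaving out 1 more in turn. The 19 called members became 8 without WT 1 as well, beside 14.3% of all genes called, and 11 without WT 2 as well, beside 15.9%, fits in which the lone remaining WT library is assumed to vary like the KO libraries. They became 13 without KO 1 (27.6% of all genes), 15 without KO 2 (27.8%), and 21 without KO 3; in this last fit, without both libraries numbered 3, 20 rose and 1 fell, beside 45.4% of all genes called, 22.7% higher and 22.7% lower. In all 5 of these fits 8 members were called, among them Polr1a, Polr1b, Polr1c, Polr2c, Polr2e, Polr3d and Polr3e, beside 13.6% of all genes. All 19 were also called by DESeq2 and by limma-voom on the same 5 libraries, which called 38.4% and 35.2% of all genes.

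The library labelled WT 3 lay nearer to the mean of the 3 libraries labelled KO than to the mean of those labelled WT 1 and WT 2 in 25 of the 28 members, a share to be read beside 76.3% of all genes tested. Its median distance over the members, as log2(CPM + 0.5), was -0.01 from the KO mean and 0.58 from the mean of WT 1 and WT 2. The exceptions were Polr2i, Polr3f and Polr3k, in which it lay nearer to the other WT libraries. With all 6 libraries, 8 members had every KO library above every WT library (Polr1c, Polr1d, Polr2d, Polr2e, Polr3a, Polr3e, Polr3f and Polr3k), beside 9.26% of all genes, and Polr3gl had every KO library below, beside 9.22%. With WT 3 left out, 23 members had every KO library above, beside 31.5% of all genes, and Polr3gl alone of the 28 had every KO library below, beside 30.1%. None of the 9 members that separate with all 6 libraries passed the test there, and Polr1d, Polr3f and Polr3k did not pass without WT 3 either.

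Polymerase I had the highest median difference of the enzymes. Polr1b, on chr2:129100995-129126594 (mm10, forward strand, 15 exons in its principal coding transcript), encodes the smaller of the catalytic pair. It was at 130, 124 and 94.3 CPM under the labels KO 1, KO 2 and KO 3, against 23.2, 20.8 and 115 CPM under WT 1, WT 2 and WT 3. The library labelled WT 3 lay among the KO libraries, and the other WT libraries were far below all 4. The KO mean was 5.26 times the mean of WT 1 and WT 2, and the log2 difference was 2.40 without WT 3 (SE 0.17, adjusted p = 0.000141, edgeR). With all 6 libraries the means were 116 ± 18.9 CPM under the KO label and 52.9 ± 53.5 CPM under the WT label (SD, n = 3 each), a log2 difference of 1.13 (SE 0.65, adjusted p = 0.385, edgeR).

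Polr1a, on chr6:71909053-71984935 (forward strand, 34 exons), encodes the largest subunit, which holds the other side of the active centre. Its levels were 64.6, 72.7 and 73.1 CPM under the labels KO 1, KO 2 and KO 3, against 40.8, 29.3 and 67.1 CPM under WT 1, WT 2 and WT 3. Here too the WT 3 value fell within the KO range. The log2 difference was 1.01 without WT 3 (SE 0.16, adjusted p = 0.00334) and 0.62 with it (SE 0.29, adjusted p = 0.354), both by edgeR. Polr1e encodes a subunit that aids initiation and elongation by polymerase I. It was at 39.1, 45.3 and 36.2 CPM under the KO labels 1 to 3, against 20.1, 24.9 and 42.5 CPM under the WT labels 1 to 3, and rose by 0.84 without WT 3 (SE 0.16, adjusted p = 0.0073, edgeR). That call was lost without WT 1 as well (adjusted p = 0.0844, edgeR).

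The subunits filed under other symbols were mixed. Cd3eap, the partner of Polr1e, was at 31.7 to 42.0 CPM under the KO label, against 14.4, 14.2 and 40.6 CPM under the labels WT 1, WT 2 and WT 3, and rose by 1.38 with WT 3 left out (SE 0.17, adjusted p = 0.000988, edgeR). Twistnb, which forms the stalk of polymerase I, was at 68.9 to 79.9 CPM under the KO label, against 42.7, 44.0 and 76.3 CPM under WT 1, WT 2 and WT 3, and rose by 0.80 (SE 0.11, adjusted p = 0.00182, edgeR). Znrd1, the small zinc-ribbon subunit that aids RNA cleavage, was at 27.4 to 29.8 CPM under the KO label, against 22.6, 28.2 and 30.8 CPM under WT 1, WT 2 and WT 3, with overlapping groups and no call in either fit (adjusted p = 0.825 and 0.414, edgeR).

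The catalytic pair of polymerase I stands in equal number in the enzyme, and the ratio of their counts does not depend on library scaling. Polr1b over Polr1a counts was 2.01, 1.70 and 1.29 under the labels KO 1, KO 2 and KO 3, against 0.568, 0.711 and 1.71 under WT 1, WT 2 and WT 3. The groups overlap through the library labelled WT 3 (exact two-sided permutation p = 0.3, where 0.1 is the smallest that 3 libraries against 3 allow). The equivalent ratios of polymerase II (Polr2b over Polr2a, 2.37 ± 0.695 under the KO label and 2.34 ± 0.341 under the WT label) and polymerase III (Polr3b over Polr3a, 0.803 ± 0.120 under KO and 0.728 ± 0.217 under WT; SD, n = 3 each) overlapped as well, with exact permutation p = 1 and 0.6. These were 3 of 7 within-library ratios compared, and the smallest adjusted p over the 7 was 0.35.

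**Figure D2:**
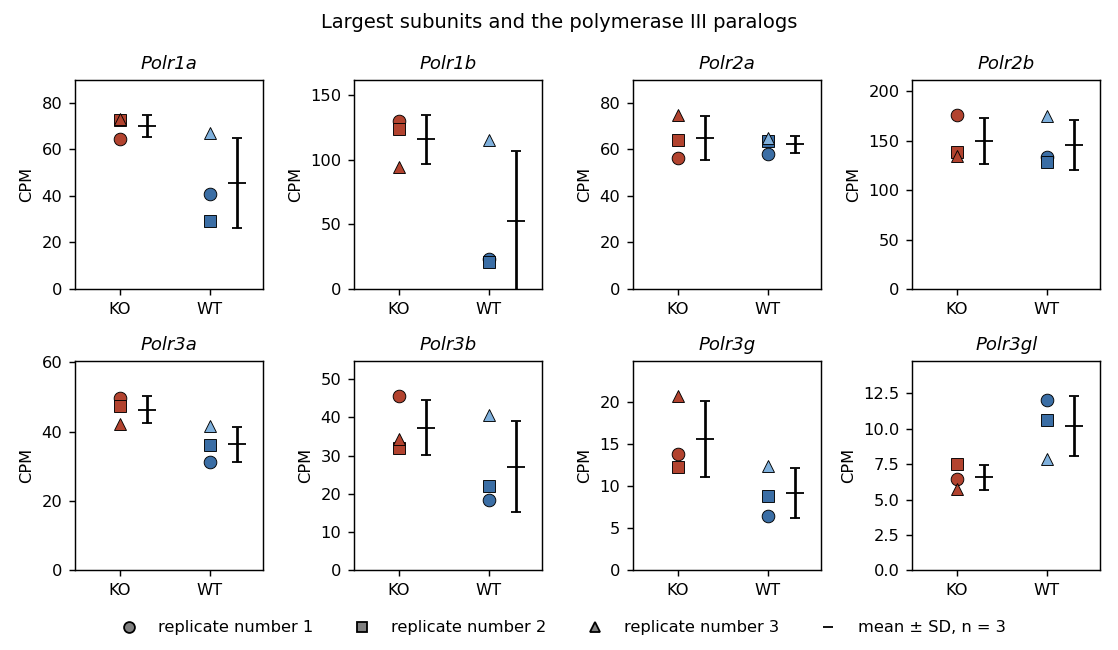
CPM (vertical axes, from 0) of the catalytic pairs of polymerases I, II and III and of the paralogs Polr3g and Polr3gl in the libraries labelled KO (left) and WT (right); points are libraries, with the replicate number as shape, and bars are mean ± SD (n = 3), cut at 0 for Polr1b under WT. The pale triangle is the library labelled WT 3, which for Polr1b lies at 115 CPM beside 94.3 to 130 CPM under the KO label.

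The pair shared by polymerases I and III seeds assembly of both enzymes. Polr1c was at 55.8, 50.7 and 53.8 CPM under the labels KO 1, KO 2 and KO 3, against 25.0, 33.0 and 49.7 CPM under WT 1, WT 2 and WT 3. No WT library reached the KO range, and WT 3 lay closest to it. The log2 difference was 0.89 without WT 3 (SE 0.15, adjusted p = 0.00405) and 0.57 with it (SE 0.25, adjusted p = 0.346), by edgeR. Polr1d, its partner, was at 156, 149 and 144 CPM under the KO labels 1 to 3, against 115, 129 and 139 CPM under the WT labels 1 to 3. The groups did not overlap, but the difference of 0.30 missed the threshold even without WT 3 (SE 0.10, adjusted p = 0.0511, edgeR).

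Of the 5 subunits built into all the enzymes, every member rose without the library labelled WT 3, beside 17.7% of all genes called higher. Their log2 differences ran from 0.57 to 1.05. Per kilobase of principal coding transcript Polr2e was the most abundant of them, but Polr2k was above it with all annotated exons as the length. Polr2e was at 201, 220 and 184 CPM under the labels KO 1, KO 2 and KO 3, against 125, 112 and 178 CPM under WT 1, WT 2 and WT 3. All KO libraries lay above all WT libraries. It rose by 0.77 without WT 3 (SE 0.11, adjusted p = 0.00201, edgeR), against 0.54 with all 6 libraries (SE 0.20, adjusted p = 0.342, edgeR). Polr2h had the widest difference of the 5, at 46.1, 56.0 and 37.6 CPM under the KO labels 1 to 3 and 21.8, 23.6 and 46.8 CPM under the WT labels 1 to 3. Its log2 difference was 1.05 without WT 3 (SE 0.19, adjusted p = 0.00517, edgeR).

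The other shared subunits had smaller differences, and in each of them the library labelled WT 3 lay inside the KO range. Polr2f was at 83.3, 92.6 and 66.6 CPM under the KO labels 1 to 3, against 46.2, 51.6 and 80.3 CPM under the WT labels 1 to 3 (log2 difference 0.73 without WT 3, adjusted p = 0.0112, edgeR). Polr2k was at 48.0, 53.5 and 44.0 CPM under KO 1 to KO 3, against 35.0, 30.9 and 49.5 CPM under WT 1 to WT 3 (0.57, adjusted p = 0.0175, edgeR). Polr2l was at 78.7, 86.8 and 63.6 CPM under KO 1 to KO 3, against 46.9, 54.2 and 79.1 CPM under WT 1 to WT 3 (0.60, adjusted p = 0.0231, edgeR). Of these 5 only Polr2e stayed past the threshold in every fit that left out 1 more library; Polr2k and Polr2l passed only in the fit without KO 3. The highest adjusted p in those fits were 0.115 for Polr2f, 0.0666 for Polr2h, 0.15 for Polr2k and 0.187 for Polr2l (edgeR).

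Polymerase II's own subunits divided into 3 that rose without the library labelled WT 3 and 4 that did not pass. In that fit 17.7% of all genes were called higher. Polr2a, on chr11:69733997-69758637 (reverse strand, 29 exons), encodes the largest subunit with its repeated C-terminal tail, the platform for RNA processing factors. It was at 56.1, 64.0 and 74.9 CPM under the labels KO 1, KO 2 and KO 3, against 58.1, 63.5 and 64.7 CPM under WT 1, WT 2 and WT 3. The groups overlap, with a log2 difference of 0.10 without WT 3 (SE 0.14, adjusted p = 0.632, edgeR) that was -0.0096 once KO 3 was left out as well. Polr2b, its catalytic partner, was at 176, 138 and 135 CPM under the KO labels 1 to 3, against 133, 129 and 175 CPM under the WT labels 1 to 3. It too had no call (0.20, SE 0.13, adjusted p = 0.302, edgeR), which does not show that its level was the same under both labels.

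Polr2i, which aids accuracy of transcription, was at 21.5 to 27.2 CPM under the KO label and 20.6 to 24.6 CPM under the WT label (log2 difference 0.14 without WT 3, adjusted p = 0.566, edgeR). Polr2j, an assembly subunit that pairs with Polr2c, was at 60.6 to 69.4 CPM under KO and 55.0 to 67.7 CPM under WT (0.10, adjusted p = 0.594, edgeR). In both genes the labels overlap with WT 3 and without it. Polr2b, Polr2i and Polr2j each overlap another protein-coding gene on the opposite strand (Igfbp7, Tbcb and Lrwd1). The same holds for called members, among them Polr1e, Polr2c, Polr2h and Polr3gl (Fbxo10, Dok4, Clcn2 and Gm16253). Whether counting used strand was not stated in the sources used, so reads from these overlaps cannot be told apart. Polr2m, the associated protein that controls polymerase II's response to Mediator, was at 252 to 272 CPM under the KO label and 231 to 271 CPM under the WT label, with no call (0.17, adjusted p = 0.167, edgeR).

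The genes of polymerase II that rose were Polr2c and the stalk pair Polr2d and Polr2g. Polr2c was at 155, 158 and 145 CPM under the labels KO 1, KO 2 and KO 3, against 92.9, 102 and 167 CPM under WT 1, WT 2 and WT 3, and rose by 0.66 without WT 3 (SE 0.10, adjusted p = 0.00209, edgeR). The WT 3 value was above all 3 KO libraries. Polr2d was at 76.8, 79.7 and 77.4 CPM under the KO labels 1 to 3, against 51.5, 56.2 and 70.6 CPM under the WT labels 1 to 3, with no overlap, and rose by 0.54 (SE 0.10, adjusted p = 0.00585, edgeR). Polr2g was at 124, 137 and 114 CPM under KO 1 to KO 3, against 87.0, 101 and 120 CPM under WT 1 to WT 3, and rose by 0.42 (SE 0.12, adjusted p = 0.0335, edgeR). Leaving out WT 1 as well ended the call of Polr2d (adjusted p = 0.0792), and leaving out any library but KO 3 ended that of Polr2g (adjusted p up to 0.257), by edgeR.

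**Figure D3:**
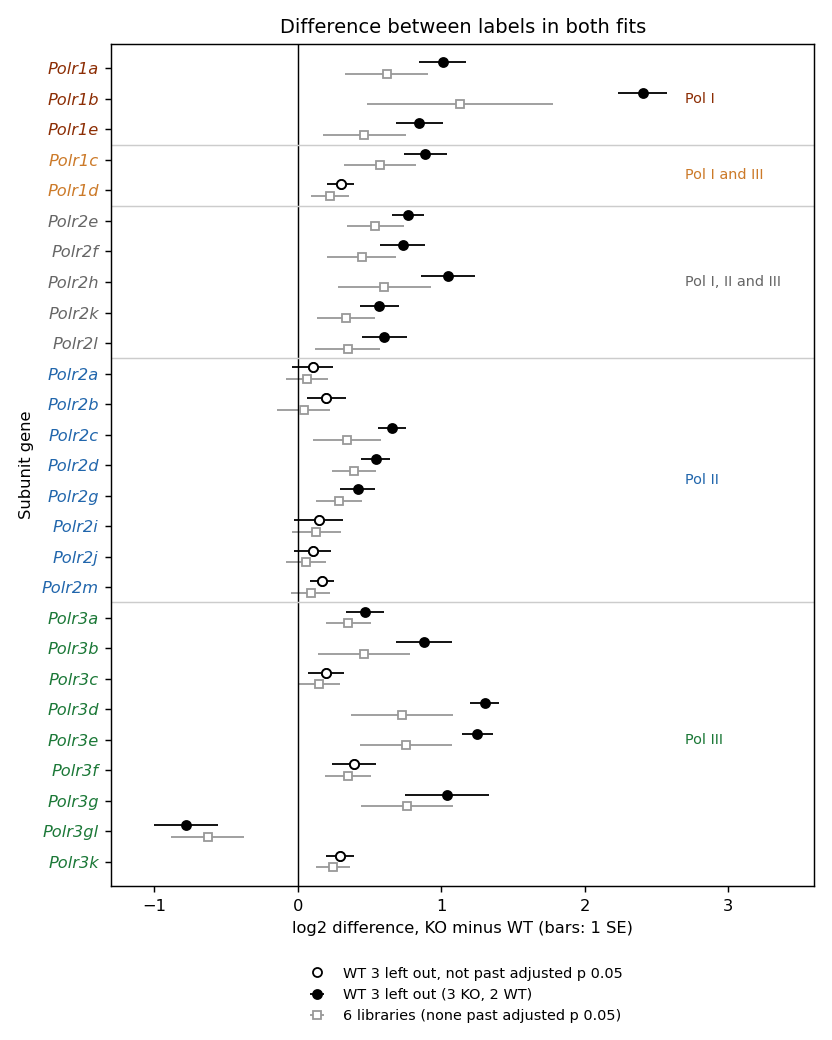
Log2 difference, KO minus WT, of the subunit genes described here (rows, grouped by enzyme) from edgeR with the library labelled WT 3 left out (circles, filled where the adjusted p is under 0.05) and with all 6 libraries (squares); bars are 1 SE. Polr1b stands at 2.40 and Polr3gl at -0.78 in the fit without WT 3. Polr2a, Polr2b, Polr2i and Polr2j lie near 0 in both fits, as do Polr2m and, from polymerase III, Polr3c.

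Of the 10 genes particular by annotation to polymerase III, 6 rose and 1 fell once WT 3 was left out. Over all genes of that fit, 17.7% were called higher and 16.1% lower. The rise was widest in Polr3d and Polr3e, partners in a subcomplex that acts in termination and re-initiation. Polr3d was at 83.0, 86.0 and 87.1 CPM under the labels KO 1, KO 2 and KO 3, against 33.7, 35.8 and 85.2 CPM under WT 1, WT 2 and WT 3. Polr3e was at 83.2, 88.6 and 84.6 CPM under KO 1 to KO 3, against 37.8, 34.4 and 79.8 CPM under WT 1 to WT 3. The partners had the same pattern over the 6 libraries, with the library labelled WT 3 within or just below the KO range. Without it Polr3d rose by 1.30 (SE 0.10, adjusted p = 0.000198) and Polr3e by 1.25 (SE 0.11, adjusted p = 0.000261), and with it the differences were 0.73 (SE 0.36, adjusted p = 0.357) and 0.75 (SE 0.32, adjusted p = 0.346), all by edgeR.

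Crcp, a stalk subunit of polymerase III, was at 59.0 to 65.0 CPM under the KO label, against 37.5, 39.2 and 52.0 CPM under the labels WT 1, WT 2 and WT 3, with no overlap, and rose by 0.69 without WT 3 (SE 0.11, adjusted p = 0.00293, edgeR).

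The catalytic pair of polymerase III differed less. Polr3a, the largest subunit, was at 49.7, 47.2 and 42.1 CPM under the labels KO 1, KO 2 and KO 3, against 31.3, 36.0 and 41.5 CPM under WT 1, WT 2 and WT 3, and rose by 0.47 without WT 3 (SE 0.13, adjusted p = 0.0335, edgeR). Polr3b was at 45.5, 32.0 and 34.3 CPM under KO 1 to KO 3, against 18.5, 22.1 and 40.6 CPM under WT 1 to WT 3, and rose by 0.88 (SE 0.19, adjusted p = 0.0124, edgeR). The groups of Polr3a did not overlap, while WT 3 lay among the KO libraries for Polr3b. Neither call held without WT 1 or without WT 2 as well (adjusted p up to 0.241 for Polr3a and 0.12 for Polr3b, edgeR), and that of Polr3a was also lost without KO 1 or KO 2.

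Members with no call were Polr3c, Polr3f and Polr3k. Polr3c and Polr3f belong, with Polr3g or Polr3gl, to the subcomplex that opens the promoter. Polr3c was at 92.2 to 118 CPM under the KO label and 87.8 to 99.9 CPM under the WT label (log2 difference 0.20 without WT 3, adjusted p = 0.275, edgeR), and a short gene model, Gm42783, overlaps it on the same strand. Polr3f was at 23.0 to 25.3 CPM under KO and 16.9 to 20.1 CPM under WT, with no overlap (0.39, adjusted p = 0.0959, edgeR). Polr3k, the RNA-cleavage subunit, was at 83.0 to 86.5 CPM under KO and 65.3 to 75.0 CPM under WT, also with no overlap (0.30, adjusted p = 0.0568, edgeR).

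The alternative subunits Polr3g and Polr3gl differed in opposite directions. The forms occupy the same place in polymerase III; Polr3g is known from stem cells and dividing cells, and Polr3gl is found in most tissues. Polr3g, on chr13:81673843-81711013 (reverse strand, 8 exons), was at 13.8, 12.3 and 20.7 CPM under the labels KO 1, KO 2 and KO 3, against 6.46, 8.80 and 12.4 CPM under WT 1, WT 2 and WT 3. Polr3gl, on chr3:96577872-96594181 (reverse strand, 8 exons), was at 6.48, 7.50 and 5.74 CPM under KO 1 to KO 3, against 12.0, 10.6 and 7.86 CPM under WT 1 to WT 3. For Polr3g the library labelled WT 3 just exceeded KO 2, and for Polr3gl all KO libraries lay below all WT libraries, WT 3 being the nearest.

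Without the library labelled WT 3, Polr3g rose by 1.04 (SE 0.29, adjusted p = 0.0314) and Polr3gl fell by 0.78 (SE 0.22, adjusted p = 0.0338), as log2 differences by edgeR. With all 6 libraries the differences were 0.76 (SE 0.32, adjusted p = 0.346) and -0.63 (SE 0.26, adjusted p = 0.342, edgeR). Each call was lost when KO 1, WT 1 or WT 2 was left out as well (adjusted p up to 0.214 and 0.21, edgeR). The counts behind them were among the lowest of the members, 398, 414 and 648 for Polr3g under KO 1 to KO 3, against 197, 269 and 373 under WT 1 to WT 3. For Polr3gl they were 187, 252 and 180 under KO 1 to KO 3, against 367, 325 and 237 under WT 1 to WT 3.

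The share of Polr3g in the summed counts of both forms needs no library scaling. It was 68.0% (95% Wilson interval 64.2 to 71.7), 62.2% (58.4 to 65.8) and 78.3% (75.3 to 80.9) under the labels KO 1, KO 2 and KO 3, against 34.9% (31.1 to 39.0), 45.3% (41.3 to 49.3) and 61.1% (57.2 to 64.9) under WT 1, WT 2 and WT 3. Every KO share was above every WT share, although the intervals of KO 2 and WT 3 overlap. The means were 69.5 ± 8.15% under KO and 47.1 ± 13.2% under WT (SD, n = 3 each), a difference of 22.4 percentage points with an exact two-sided permutation p of 0.1, the smallest that this design allows (adjusted p = 0.35 over 7 ratios). Intervals cover counting error only. As Polr3g transcripts are longer (3054 against 1427 bases), a share of counts is not a share of molecules.

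**Figure D4:**
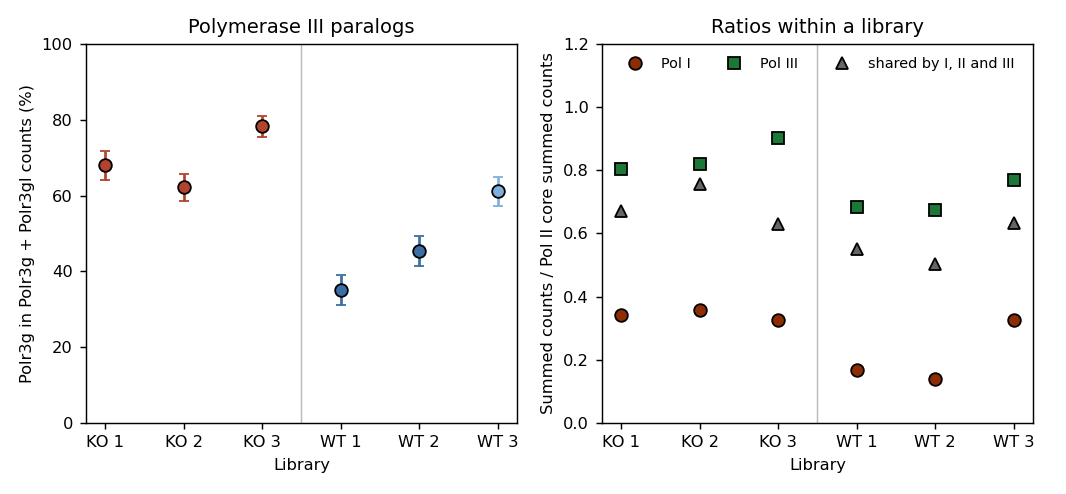
Quantities formed within a library, for the libraries labelled KO 1 to KO 3 and WT 1 to WT 3. Left, Polr3g as a percentage of Polr3g plus Polr3gl counts with 95% Wilson intervals, 62.2% to 78.3% under the KO label and 34.9% to 61.1% under the WT label; right, summed counts of subunits of polymerase I, of polymerase III and of those in all the enzymes, each divided by the summed counts of the 7 core subunits of polymerase II.

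Set against polymerase II within the same library, the other enzymes' subunits took a larger share of counts under the KO label and in the library labelled WT 3. Polymerase I counts were 0.343, 0.359 and 0.324 times those of polymerase II under the labels KO 1, KO 2 and KO 3, against 0.169, 0.138 and 0.327 times under WT 1, WT 2 and WT 3. For polymerase III the ratios were 0.804, 0.821 and 0.904 under KO 1 to KO 3, against 0.682, 0.675 and 0.768 under WT 1 to WT 3. The ratio for polymerase III separated the labels, with an exact p of 0.1, and that for polymerase I did not (exact p = 0.2), because WT 3 lay above KO 3. For the subunits in all the enzymes it was 0.671, 0.755 and 0.630 under KO 1 to KO 3, against 0.551, 0.502 and 0.632 under WT 1 to WT 3 (exact two-sided permutation p = 0.2). No adjusted p over the 7 ratios was under 0.35.

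Levels per kilobase of the principal coding transcript (GENCODE vM21) allow members to be compared with each other. Over the 6 libraries the mean ran from 148 CPM per kilobase for Polr2e to 4.06 for Polr3g. The catalytic subunits averaged 21.1 for Polr1b and 6.29 for Polr1a, 35.7 for Polr2b and 9.43 for Polr2a, and 6.47 for Polr3b and 8.81 for Polr3a. In rank among the 28, Polr2b was 13 and the other 5 were 19 to 25. Polr1b was at 23.6 to 32.4 CPM per kilobase under the KO label, against 5.79, 5.21 and 28.7 under the labels WT 1, WT 2 and WT 3, and it was above Polr1a in all 6 libraries. Neighbours in this order often overlapped: Polr1d averaged 125 ± 5.17 under the KO label and 107 ± 10.2 under the WT label, beside Polr2m at 119 ± 4.49 under KO and 112 ± 9.55 under WT (SD, n = 3 each). With the union of all annotated exons as the length, a choice added after the data were seen, Polr2e passed from rank 1 to rank 5 and Polr2m led, so the order among abundant members rests on the transcript chosen.

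**Figure D5:**
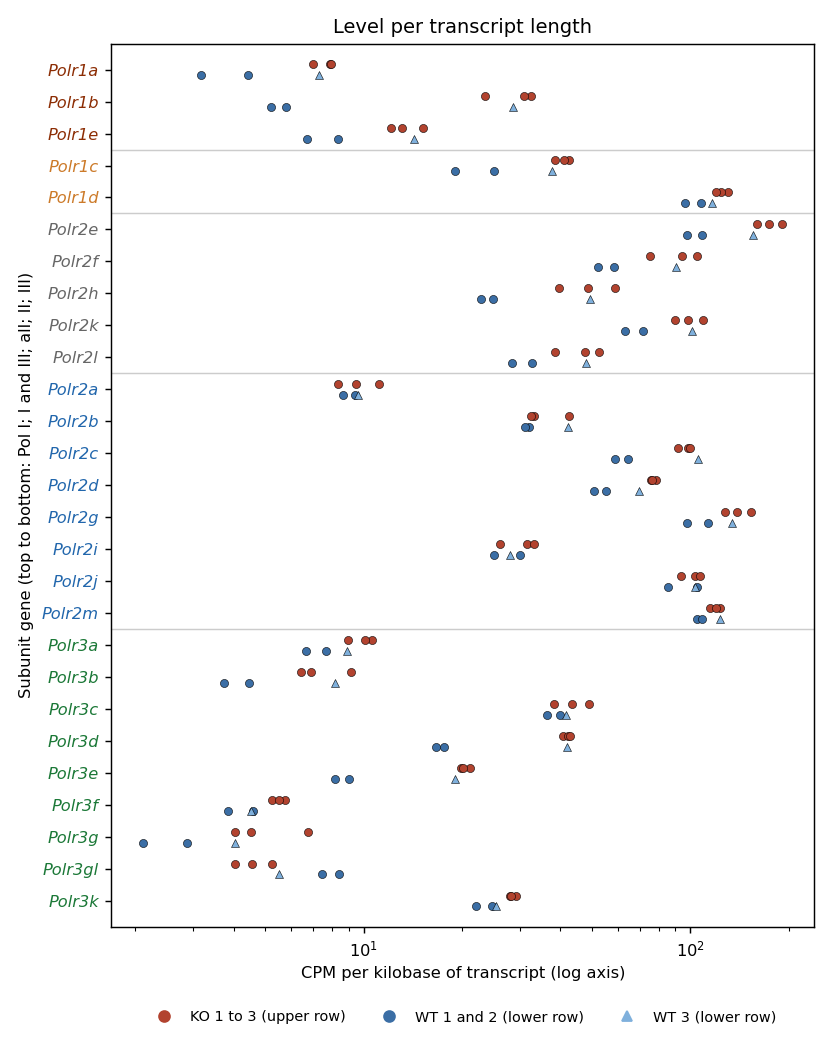
CPM per kilobase of principal coding transcript (log axis) of the members described here in the libraries labelled KO (upper row of points) and WT (lower row; the triangle is WT 3). Polr2e averages 148 and Polr3g 4.06. The catalytic subunits of polymerases I and III lie towards the low end, as does Polr2a of polymerase II.

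Genes that act with the polymerases were taken from lists, and none passed with all 6 libraries. Without WT 3 their counts are to be read beside the 17.7% of all genes called higher and 16.1% called lower. Of 7 polymerase I initiation and termination factors, 5 rose and 0 fell with WT 3 left out (median log2 difference 0.59). Rrn3, which makes polymerase I competent to start, was at 98.4 to 99.7 CPM under the KO label, against 63.0, 55.5 and 94.8 CPM under the labels WT 1, WT 2 and WT 3, with no overlap (0.75, SE 0.10, adjusted p = 0.00154, edgeR). Ubtf, which holds ribosomal DNA in an open state, was at 233 to 242 CPM under KO, against 155, 170 and 229 CPM under WT 1 to WT 3 (0.55, SE 0.09, adjusted p = 0.00322, edgeR), and Taf1d, a part of the promoter selectivity factor, rose by 0.84 (adjusted p = 0.00091, edgeR). Ttf1, the termination factor, was at 20.4 to 22.9 CPM under KO, against 17.2 to 21.9 CPM under WT, with no call (adjusted p = 0.849, edgeR).

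Among 15 initiation factors of polymerase III, 6 rose and 1 fell without WT 3 (median 0.36), where 17.7% of all genes were called higher and 16.1% lower. Gtf3a, which recruits polymerase III to the small ribosomal RNA gene, rose by 0.40 (SE 0.09, adjusted p = 0.0149), Bdp1, a subunit of the initiation factor TFIIIB, by 0.47 (adjusted p = 0.0295) and Snapc4, which binds small nuclear RNA promoters, by 0.52 (adjusted p = 0.0302), while its partner Snapc3 fell by 0.61 (SE 0.14, adjusted p = 0.0125), all by edgeR. Maf1, which represses polymerase III, was at 123, 130 and 153 CPM under the KO labels 1 to 3, against 166, 160 and 120 CPM under the WT labels 1 to 3. Its groups overlapped through WT 3, and every KO library lay below WT 1 and WT 2, beside 30.1% of all genes. Maf1 had no call with 6 libraries or without WT 3 (-0.26 without WT 3, SE 0.11, adjusted p = 0.127, edgeR). Without both libraries numbered 3 it was called lower (-0.35, adjusted p = 0.00379, edgeR), beside 22.7% of all genes.

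The polymerase II lists were mixed. Of 32 general initiation factors 11 rose and 0 fell with WT 3 left out (median 0.31), led by Gtf2h4 (1.02, adjusted p = 0.00119), Taf7 (1.05, adjusted p = 0.00177) and Gtf2h3 (0.65, adjusted p = 0.00579, edgeR). Of 22 pausing and elongation factors 6 rose and 3 fell (median 0.18), beside 17.7% of all genes called higher and 16.1% lower. Larp7, which keeps the kinase P-TEFb inactive, rose by 0.79 (adjusted p = 0.00143), Tcea1, which rescues stalled polymerase II, by 0.80 (adjusted p = 0.00279) and Cdc73, of the PAF1 elongation complex, by 0.64 (adjusted p = 0.00411, edgeR). Ell, an elongation factor, fell by 0.82 (SE 0.09, adjusted p = 0.000531), Nelfb, which holds paused polymerase II, by 0.26 (adjusted p = 0.043) and Ccnt2, a cyclin of P-TEFb, by 0.37 (adjusted p = 0.0497, edgeR). In these 3 genes, picked by their fall, every KO library lay below every WT library, beside 9.22% of all genes. Ell was at 73.4 to 74.4 CPM under the KO label, against 128, 134 and 80.3 CPM under the labels WT 1, WT 2 and WT 3. For Ccnt2 the gap was narrow, with KO 3 at 42.0 CPM and WT 3 at 42.7 CPM.

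Of 11 factors that assemble polymerases or carry them into the nucleus, 6 rose and 1 fell without WT 3 (median 0.56), beside 17.7% of all genes higher and 16.1% lower. Ruvbl2, an ATPase of the assembly chaperone, was at 204, 213 and 172 CPM under the labels KO 1, KO 2 and KO 3, against 64.6, 73.1 and 199 CPM under WT 1, WT 2 and WT 3 (1.52, SE 0.13, adjusted p = 0.000249, edgeR). Its partner Ruvbl1 rose by 1.21 (adjusted p = 0.0016) and Gpn1, a GTPase for polymerase II import, by 0.78 (adjusted p = 0.00153, edgeR). Uri1, a prefoldin of the same chaperone system, fell by 0.41 (adjusted p = 0.0104, edgeR). In all 11 the library labelled WT 3 was nearer to the KO mean than to WT 1 and WT 2, as in 76.3% of all genes.

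Mitochondria have their own polymerase, Polrmt, which was at 66.3, 69.8 and 44.4 CPM under the labels KO 1, KO 2 and KO 3, against 55.0, 48.7 and 73.9 CPM under WT 1, WT 2 and WT 3. It overlapped and had no call in either fit (adjusted p = 0.959 and 0.446, edgeR). Of the 7 genes of mitochondrial transcription 4 rose and 0 fell without WT 3, beside 17.7% of all genes called higher and 16.1% lower. Those that rose included Tfb2m (0.80, adjusted p = 0.00336) and Tfam (0.72, adjusted p = 0.00918, edgeR).

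Myc was at 569, 588 and 804 CPM under the KO labels 1 to 3, against 133, 144 and 592 CPM under the WT labels 1 to 3. It rose by 2.24 with WT 3 left out (SE 0.17, adjusted p = 0.000189) and did not pass with it (1.17, SE 0.58, adjusted p = 0.36), by edgeR. Its partner Max rose by 0.83 (adjusted p = 0.00168, edgeR), and Mycn was below 6.4 CPM in every library with no call (-0.76, adjusted p = 0.0909, edgeR). For Myc, as for the subunits of polymerase I, the library labelled WT 3 lay nearer to the KO mean than to WT 1 and WT 2. The same was seen in 76.3% of all genes tested. The part of Myc in the subunits' levels was not tested.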

How the data were processed

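Messenger RNA of sorted lung ILC2s was measured in 6 libraries. Titles gave the labels and numbers; every column of the tables matched a sample by name. The authors deposited estimated counts per gene, not normalized, and a table of normalized signal. On the values, that signal was the estimated count with 1 added and then divided by a factor of its library (31.2 to 36.0). CASAVA 1.8.2, STAR, Partek and mm10 are named, without roles, per the submitters' processing notes. Annotation, strand use and the handling of shared reads were not stated there. Of the 28 members 8 had whole estimated counts in every library (within 0.01). Another listed gene overlaps 11 of them, 1 on the same strand.

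Rounded estimated counts were tested by edgeR 4.0.16 in R 4.3.3 (TMM, filterByExpr, robust quasi-likelihood), KO against WT, without covariates. Adjusted p are Benjamini-Hochberg values over all genes tested, with a threshold of 0.05, and an SE is the log2 difference over the square root of F. Alternatives were DESeq2 1.42.0, limma 3.58.1 (voom on counts, trend on the authors' signal as log2), other scalings and filters, a replicate block and left-out libraries. The procedure was also run on simulated counts, with the same dispersion for every gene and no library that departs from its label. The data here differ in both, so that run does not bear on the calls. Ratios within a library were compared by exact permutation. Deposited gene ends were reduced by 1 base, after which 24 of 28 members matched GENCODE vM21.

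All members but 1, which is counted and not reported here by name, are named, and from each list of associated genes up to 3 per direction with the lowest p without WT 3. Members, lists and the fit without WT 3 were chosen with earlier results of these data known. Protein sequences were not used here.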

Additional observations from a re-analysis of the deposited data

How the results depend on the processing

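With all 6 libraries, 0 members passed under every scaling, filter, tool, dispersion setting and threshold tried. Leaving out libraries was the exception: 19 passed without WT 3 and 21 without both numbered 3, and fits without any other single library gave 0. The median log2 difference, 0.35 with 6 libraries, was 0.66 without both numbered 3 (0.83 for subunits in all the enzymes, 0.27 for polymerase II, 0.66 for polymerase III). Leaving out 1 library gave 0.23 to 0.58 over all members, 0.38 (without WT 2) to 1.01 for polymerase I, 0.24 to 0.59 for the pair in I and III, 0.27 to 0.73 for the subunits in all the enzymes, 0.04 to 0.23 (without KO 3) for polymerase II and 0.24 to 0.67 for polymerase III; the other lowest values were without WT 1 and the other highest without WT 3.

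In the fit without WT 3, the 19 calls became 18 to 20 under other scalings, filters, tools and dispersion settings. At a threshold of 0.1 they became 22, beside 6177 of 14743 genes called. Of the single genes, Polr2g lost its call with upper-quartile scaling, and Polr1d gained one with DESeq2 and with limma-voom, and Polr1d and Polr3k without both libraries numbered 3. Leaving out 1 more library gave 8 to 21 called members. Median log2 differences then ran from 0.47 to 0.66 over all members, from 0.94 to 1.27 for polymerase I, from 0.46 to 0.74 for the pair in I and III, from 0.58 to 0.83 for the subunits in all the enzymes and from 0.18 to 0.28 for polymerase II. Without both numbered 3 the median over all members was 0.66.

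Some differences near 0 changed sign with the libraries used, and the cause was not tested. Polr2a was -0.0096 without both numbered 3, and -0.044 to 0.16 (6 libraries) or -0.0096 to 0.18 (without WT 3) when 1 library was left out. Polr2b was -0.091 to 0.20 and Polr2j -0.060 to 0.11 with 6 libraries, and Polr2j was -0.039 to 0.26 without WT 3. No called member changed sign.

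The labels do not say whether replicate numbers pair the libraries. Deviations of same-numbered libraries from the mean of their label, over all genes tested, correlated at -0.0367, 0.0196 and -0.00776. As WT 3 departs from WT 1 and WT 2, it shapes these deviations, so the values cannot decide whether libraries were paired. With a replicate block the count of called members was 0 with 6 libraries, beside 0 of 14052 genes. Without WT 3 it was 22, beside 6516 of 14743 genes called, and Polr1d, Polr2b and Polr3k were gained. The median was then 0.66 and Polr2a -0.013. In that fit KO 3 is alone in its block and adds nothing to the difference between labels. It therefore compares KO 1 and KO 2 with WT 1 and WT 2, as the fit without both libraries numbered 3 does. Polr3g and Polr3gl rest on counts of 180 to 648 per library.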
